A study of Arabidopsis thaliana with 18 samples.

Results

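Of 22746 probe sets on the ATH1 expression array (Affymetrix), each reporting a transcript of Arabidopsis thaliana, 63 were high 4 h after a heat treatment and back near the untreated level at 52 h, in seedlings of the bru1 mutant and of the wild type. They were chosen from the measured values themselves. A probe set was kept when its mean at 4 h lay at least 1.5 above its control mean on the log2 scale and its mean at 52 h lay within 0.5 of the control mean, in bru1 and in Columbia (Col) alike. These thresholds were met by 69 probe sets, of which 5 for mitochondrial genes and the dehydrin gene COR47, a late embryogenesis abundant (LEA) gene, were left out, as were any other genes of the organelle genomes, heat shock proteins, HSC70, FES1A, HOP and LEA. Of the 63 probe sets, 18 carried 1 gene each in the annotation used here, 4 carried several genes and 41 were not listed there. The last 2 kinds stay unnamed, and for the unlisted ones the exclusion by gene could not be checked. The 4 h and 52 h changes against control chose these transcripts, so they are described below without tests, and tests are given for the differences between bru1 and Col in the controls, at 4 h and at 52 h. The rule sets no threshold on these differences, but it uses the same arrays. By holding both 52 h means near their controls, it ties the 52 h difference to the control difference. The 4 h difference is the control difference plus the difference of both 4 h changes, so it is drawn from values the rule used.

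The 6 groups, each of 3 arrays that the labels call biological replicates, were bru1 4 h after acclimation, bru1 at 52 h, untreated bru1 controls, Col at 4 h, Col at 52 h and untreated Col controls. Seedlings aged 4 d were acclimated for 1 h at 37 °C, 1.5 h at 23 °C and 45 min at 44 °C, beginning 6 h after dawn, and all RNA was taken at a matching time of day. Seedlings of the 52 h groups were therefore older than the controls, which were collected at the 4 h time point. The labels name no bru1 allele and no hybridisation batch, and no probe set is listed with BRU1 in the annotation used here, so the genotype could not be checked on the gene itself. Whole seedlings mix tissues, in which fewer cells of a type and less RNA per cell cannot be told apart. Array medians lay between 6.49 and 6.55, and no 2 arrays were identical. A control probe set for 25S ribosomal RNA averaged 13.25 ± 0.01 at 4 h in bru1 and 11.13 ± 0.34 in bru1 controls, and 12.82 ± 0.40 at 4 h in Col and 11.50 ± 0.20 in Col controls (SD, n = 3 each). At 52 h, when the early transcripts were near control by the rule, it was still at 12.18 ± 0.12 in bru1 and 12.27 ± 0.19 in Col. The difference between the 3' and 5' control probe sets for actin, a measure of RNA integrity and labelling, averaged 3.51 ± 0.07 at 4 h in bru1 and 3.03 ± 0.06 in bru1 controls, and 3.27 ± 0.15 at 4 h in Col and 2.73 ± 0.06 in Col controls, and at 52 h 3.01 ± 0.08 in bru1 and 3.17 ± 0.28 in Col. The same difference for GAPDH was 0.60 ± 0.03 at 4 h in bru1 and 0.67 ± 0.10 in bru1 controls. In Col it was 0.62 ± 0.09 at 4 h and 0.41 ± 0.05 in the controls. For the 52 h groups it was 0.70 ± 0.05 in bru1 and 0.48 ± 0.06 in Col. Both measured root markers were lower at 4 h. EXPA18 changed by -1.19 in bru1 (limma adjusted p = 5.8e-04) and by -1.29 in Col (limma adjusted p = 3.2e-04), and EXPA7 changed by -0.82 in bru1 (limma adjusted p = 0.011) and by -1.18 in Col (limma adjusted p = 7.2e-04). At 52 h EXPA18 stood at -0.91 against control in bru1 and -1.11 in Col, and EXPA7 at -0.79 in bru1 and -1.15 in Col. Of 8 shoot photosynthesis genes, 2 were higher and 1 was lower at 4 h in bru1, and 0 were higher and 1 was lower in Col, and the only seed reserve gene measured, OLEO3, did not pass. The part of these measures in the results below was not tested.

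Heat acclimation is a first, survivable heat treatment that sets off a fast and largely passing wave of transcription, of which a part, the heat stress memory, lasts for days. The passing wave holds genes for protein repair and turnover, signalling and growth control. BRU1, also called TONSOKU, is a nuclear protein needed to keep the genome stable through replication, and the study's title names it as a requirement of that memory.

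Over the 63 probe sets, the 4 h change had a median of 2.28 in bru1 (1.51 to 4.11) and of 2.06 in Col (1.50 to 3.77), on the log2 scale. At 52 h the median distance from control was 0.07 in bru1 (-0.37 to 0.47) and 0.12 in Col (-0.49 to 0.50). Over all 22746 probe sets, the medians of the 4 h changes were 0.01 in bru1 and 0.00 in Col. The 4 h change was 2 or more in both genotypes for 26 of the 63, and 3 or more for 3 of them. The 3 were IAA29, AT2G07678, whose gene of origin is uncertain as described below, and an unlisted probe set. Of all probe sets that met the 4 h threshold in both genotypes, 229 in number, 124 were still more than 0.5 above control at 52 h in both, and 1 was more than 0.5 below.

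**Figure D1:**
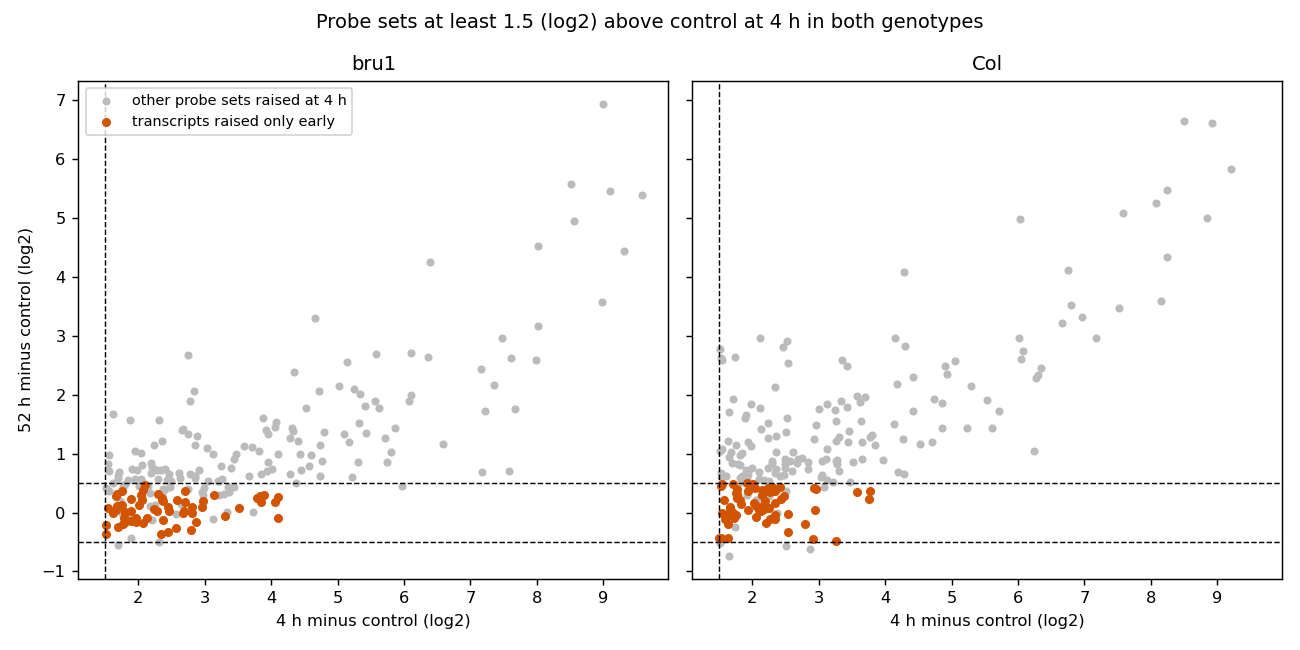
Change at 52 h against change at 4 h, each minus the control mean on the log2 scale, for the 229 probe sets at least 1.5 above control at 4 h in both genotypes, bru1 on the left and Col on the right. The 63 early transcripts (orange) lie between the dashed lines at -0.5 and 0.5 by the rule, and reach 4.11 at 4 h in bru1 and 3.77 in Col.

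IAA29 (AT4G32280) encodes an Aux/IAA repressor of auxin responses known to be induced by warmth and shade. In bru1 it stood at 8.97, 8.71 and 8.54 at 4 h and at 4.65, 5.24 and 4.80 at 52 h, against 4.29, 4.75 and 4.85 in the controls. In Col it stood at 8.51, 8.21 and 7.33 at 4 h and at 4.35, 4.74 and 4.76 at 52 h, against 4.16, 4.33 and 4.26 in the controls. Every 4 h array was far above every control of its genotype, while the 52 h arrays overlapped the controls in bru1 and lay just above them in Col. The 4 h change was 4.11 ± 0.24 in bru1 and at least 3.77 ± 0.24 in Col (SE from limma). The Col value is taken as a lower bound because the Col control mean of 4.25 was not above 4.39. The latter, the highest lower quartile of the arrays, serves here as the mark of background in place of detection calls. Whether values below this mark are at background was not tested.

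COR27 (AT5G42900) encodes a cold-regulated protein that acts as a repressor linking the circadian clock with freezing tolerance. In bru1 it stood at 10.27, 10.40 and 10.16 at 4 h and at 8.52, 7.77 and 8.48 at 52 h, against 8.34, 8.42 and 8.41 in the controls. In Col it stood at 9.87, 9.79 and 9.84 at 4 h and at 7.60, 7.93 and 7.40 at 52 h, against 7.34, 7.48 and 7.25 in the controls. The 4 h arrays were close together and separate from all others, and the bru1 controls were all above the Col controls. Its 4 h change was 1.88 ± 0.16 in bru1 and 2.48 ± 0.16 in Col.

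AT1G14200 encodes a RING/U-box family protein, a family of ubiquitin ligases that mark proteins for degradation. It stood at 10.34, 9.63 and 10.97 at 4 h in bru1 and at 6.70, 7.06 and 6.55 at 52 h, against 6.76, 6.44 and 6.24 in the controls. In Col it stood at 8.96, 9.88 and 8.45 at 4 h and at 6.89, 6.85 and 7.61 at 52 h, against 6.71, 6.88 and 6.67 in the controls. The 4 h change was 3.83 ± 0.32 in bru1 and 2.34 ± 0.32 in Col. Replicates were far apart at 4 h, where the lowest bru1 array lay below the highest Col array.

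AT3G12050 encodes an Aha1 domain protein, a relative of the activator of the HSP90 ATPase. It was already abundant in the controls, at 9.27 ± 0.17 in bru1 and 9.43 ± 0.05 in Col (SD, n = 3 each). At 4 h it reached 11.53, 10.95 and 11.74 in bru1 and 11.08, 11.58 and 10.89 in Col. These are changes of 2.14 ± 0.18 in bru1 and 1.76 ± 0.18 in Col, and the 4 h arrays of both genotypes overlapped. AT5G03030, which encodes a J-domain protein of the kind that assists HSP70 chaperones, stood at 11.31, 11.16 and 11.98 at 4 h in bru1 against 9.73, 9.89 and 9.55 in the controls. In Col it stood at 11.27, 11.39 and 10.97 at 4 h against 9.73, 9.57 and 9.69 in the controls. Its 4 h changes, 1.76 ± 0.20 in bru1 and 1.55 ± 0.20 in Col, were among the smallest of the named genes, and at 52 h in Col it was still 0.49 above control, just inside the limit.

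Of the enzyme genes, AT1G32860, a member of the glycosyl hydrolase family that includes beta-1,3-glucanases, stood at 9.31, 8.51 and 9.52 at 4 h in bru1 and at 7.54, 8.42 and 7.80 at 4 h in Col. Its controls were 6.34, 6.56 and 6.03 in bru1 and 5.92, 5.53 and 6.01 in Col. All bru1 arrays were above all Col arrays in both conditions. The narrowest margins were between 8.51 and 8.42 at 4 h and between 6.03 and 6.01 in the controls. Its control difference of 0.49 ± 0.24 (SE) did not pass (limma adjusted p = 0.23). AT5G43440, a member of the family of iron and 2-oxoglutarate dependent oxygenases, stood at 9.07, 8.90 and 9.31 at 4 h in bru1 and at 8.78, 8.53 and 8.52 at 4 h in Col. Its controls were 7.55, 7.07 and 7.26 in bru1 and lay between 6.44 and 6.52 in Col. The arrays of the genotypes did not overlap in the controls or at 4 h, but they did at 52 h. The 4 h difference of AT5G43440, 0.48 ± 0.23 (SE), did not pass (limma adjusted p = 0.19). The share of all probe sets without such overlap was not counted.

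A further 6 named genes are given without a role. AT5G12050 was 2.87 ± 0.21 above control at 4 h in bru1 and 2.91 ± 0.21 in Col. AT5G50335 was 2.01 ± 0.23 above control in bru1 and 2.54 ± 0.23 in Col, and AT3G12510 was 2.45 ± 0.26 above it in bru1 and 1.91 ± 0.26 in Col. AT3G50340 was 2.06 ± 0.14 above control in bru1 and 1.64 ± 0.14 in Col. P1R3 (AT3G29370) and AT1G33500 had control means not above the background mark, so their changes are taken as lower bounds. These are 2.46 in bru1 and 2.34 in Col for P1R3 and 1.80 in bru1 and 2.20 in Col for AT1G33500. P1R3 varied most between the Col 4 h arrays, at 7.08, 5.68 and 5.85. None of the 18 named genes had a 4 h mean at or below the background mark, whereas 6 had such a control mean in bru1 and 7 in Col.

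**Figure D2:**
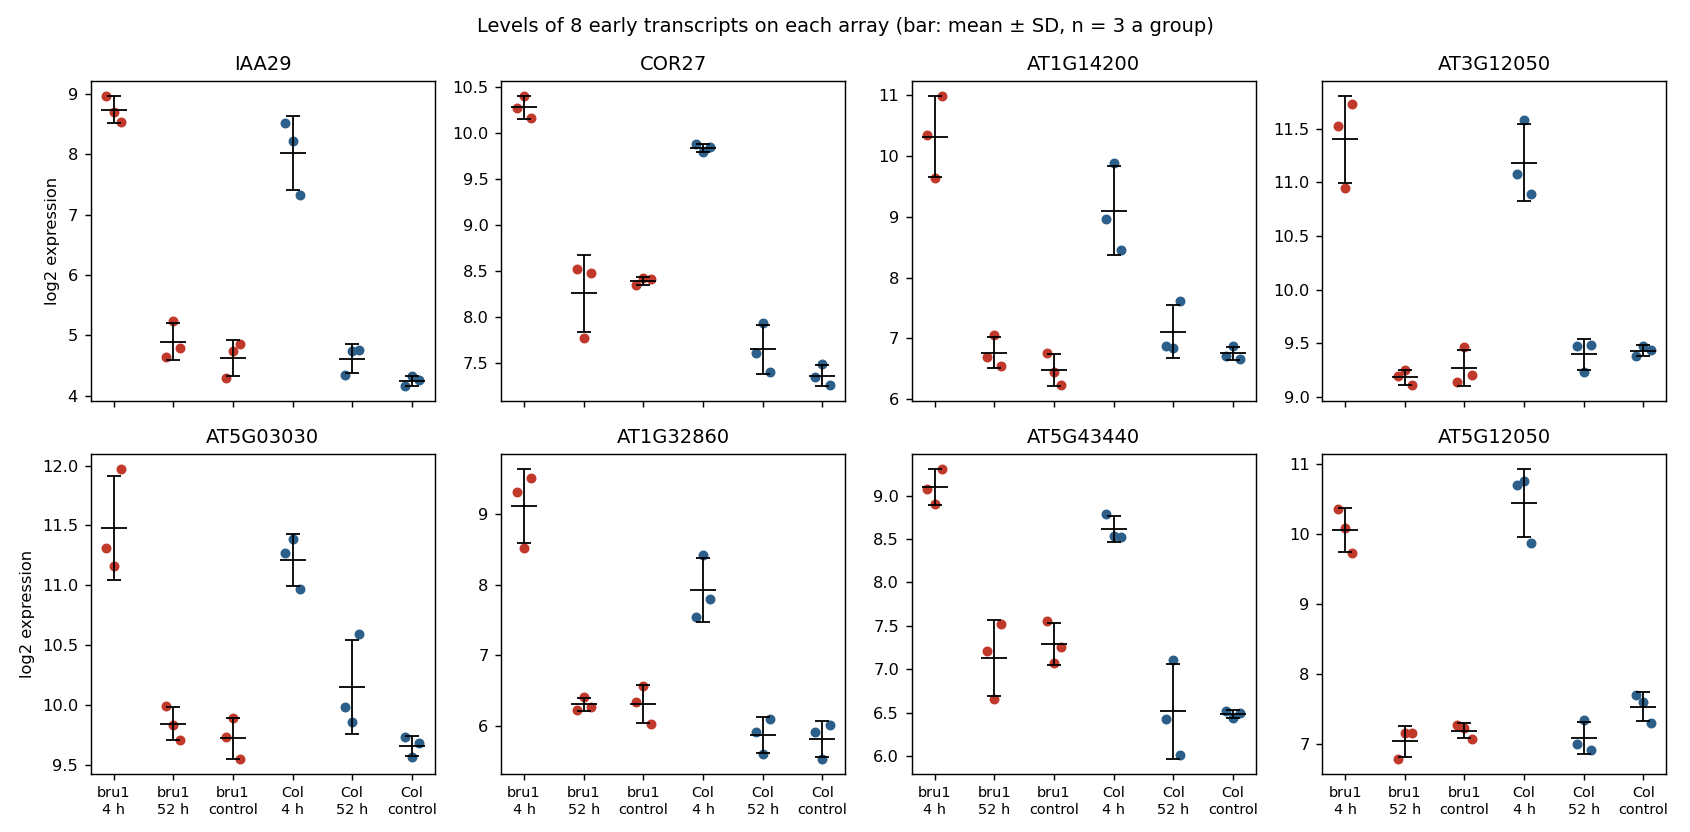
Log2 expression of 8 of the early transcripts on each of the 18 arrays, with bru1 (red) left of Col (blue) and the 4 h, 52 h and control groups in that order. Points are single arrays and bars are mean ± SD (n = 3). The 4 h arrays stand above the 52 h and control arrays in each panel, and the bru1 controls of COR27, at 8.34 to 8.42, stand above the Col controls at 7.25 to 7.48.

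The remaining 5 named genes, AT2G07678, AT2G07732, AT2G07749, AT2G07676 and AT2G07705, lie on chromosome 2, which in Columbia holds a long nuclear copy of the mitochondrial genome. In the probe annotation, 11 loci of chromosome 2 share a probe set with a mitochondrial gene, and 4 of the 5 lie between the outermost of these loci in the RefSeq gene order, a stretch taken here as that copy. AT2G07749 lies outside this stretch, with 3 genes between it and the nearest of them. Nuclear and mitochondrial transcripts of such loci cannot be told apart on this array where the sequences are near-identical, so the gene of origin of the 4 signals inside the stretch is uncertain, and that of AT2G07749 was not tested. AT2G07678 stood at 7.59, 7.55 and 7.30 at 4 h in bru1 against 3.69, 3.76 and 3.61 in the controls, and at 7.31, 7.17 and 7.13 at 4 h in Col against 3.67, 3.59 and 3.66 in the controls. Its change was at least 3.79 in bru1 and at least 3.57 in Col. These values are taken as lower bounds because neither control mean was above the background mark.

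The other 4 AT2G07 genes had 4 h changes of 1.55 to 2.71 in bru1 and of 1.81 to 2.92 in Col. These are taken as lower bounds except for AT2G07705. In the same stretch, 20 probe sets with 1 gene were measured, and 10 of them met the 4 h threshold in both genotypes. The 23 probe sets with 1 mitochondrial gene had median 4 h changes of 2.96 in bru1 and 2.84 in Col, and 17 of them met the 4 h threshold in both genotypes. At 52 h the mitochondrial medians were still 0.69 in bru1 and 0.67 in Col above control. The 25S ribosomal RNA control was higher at 4 h as well, and the part of mitochondrial transcripts in these 5 signals was not tested. Without these 5 genes the set held 58 probe sets, 13 of them named. The 58 still held the 41 unlisted probe sets, for which a mitochondrial origin could not be checked. Some of the 41 carry probe set numbers next to those of loci in the stretch, and their origin was not tested.

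**Figure D3:**
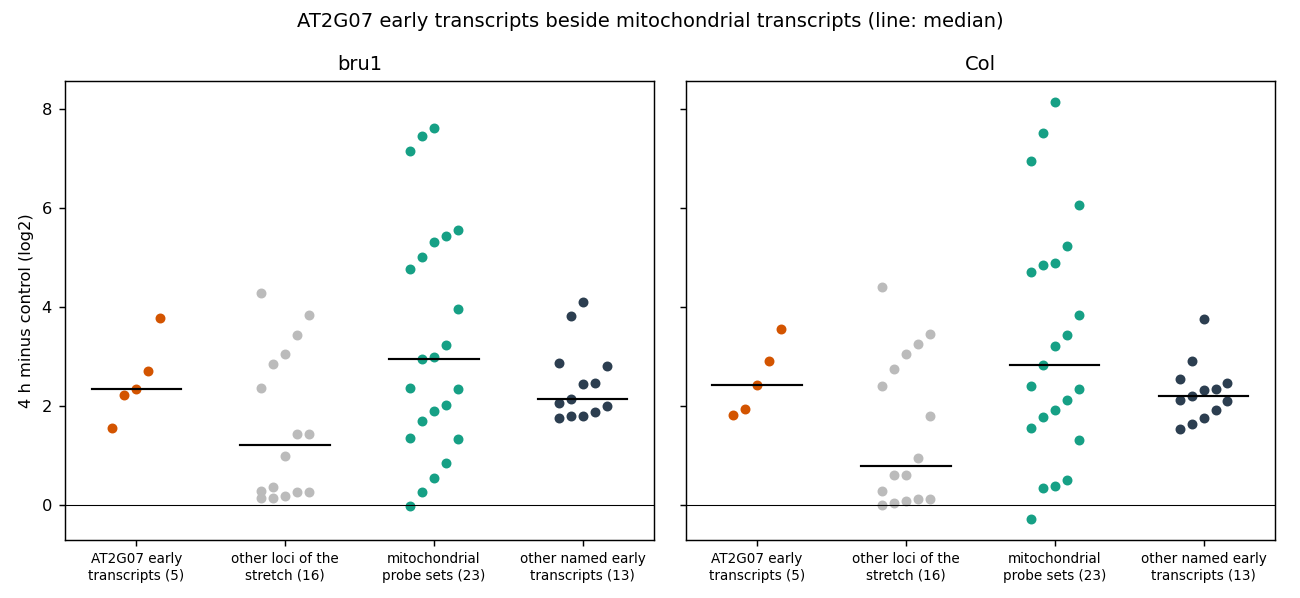
The 4 h change (log2, minus control mean) of the 5 AT2G07 early transcripts, the 16 other loci of the chromosome 2 stretch, the 23 mitochondrial probe sets and the other 13 named early transcripts, in bru1 (left) and Col (right). Points are probe sets and lines are medians. The mitochondrial medians are 2.96 in bru1 and 2.84 in Col.

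The unnamed members covered a similar range. The 41 unlisted probe sets had a median 4 h change of 2.10 in bru1 (1.51 to 4.10) and of 2.05 in Col (1.50 to 3.75). The 4 probe sets with several genes ran from 1.81 to 2.67 in bru1 and from 1.67 to 2.24 in Col. The unlisted probe set with the largest 4 h change in bru1 stood at 11.99, 11.27 and 12.45 at 4 h in bru1 against 7.90, 7.96 and 7.56 in the controls, and at 10.56, 11.67 and 10.12 at 4 h in Col against 7.80, 7.91 and 7.81 in the controls. Its 4 h arrays of the genotypes overlapped, since Col replicate 2 stood above bru1 replicate 2.

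Spread between replicates was wider at 4 h than in the controls. Over the 63 probe sets the median SD of 3 arrays was 0.31 at 4 h in bru1 and 0.15 in bru1 controls, and 0.31 at 4 h in Col and 0.13 in Col controls. Over all probe sets these medians were 0.12 at 4 h in bru1 and 0.13 in bru1 controls, and 0.14 at 4 h in Col and 0.13 in Col controls. Among the 18 named genes, AT1G14200, AT1G32860, AT3G12510, AT3G12050 and AT5G03030 had their highest Col 4 h value on replicate 2 and their lowest bru1 4 h value on replicate 2. This order, noticed after the values were seen, was shared by 20 of the 63 probe sets (31.7%), against 17.9% of all probe sets. IAA29, COR27, P1R3, AT2G07676 and AT2G07678 had another order, with replicate 1 highest in Col and replicate 3 lowest in bru1. The share of all probe sets with this other order was not counted.

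**Figure D4:**
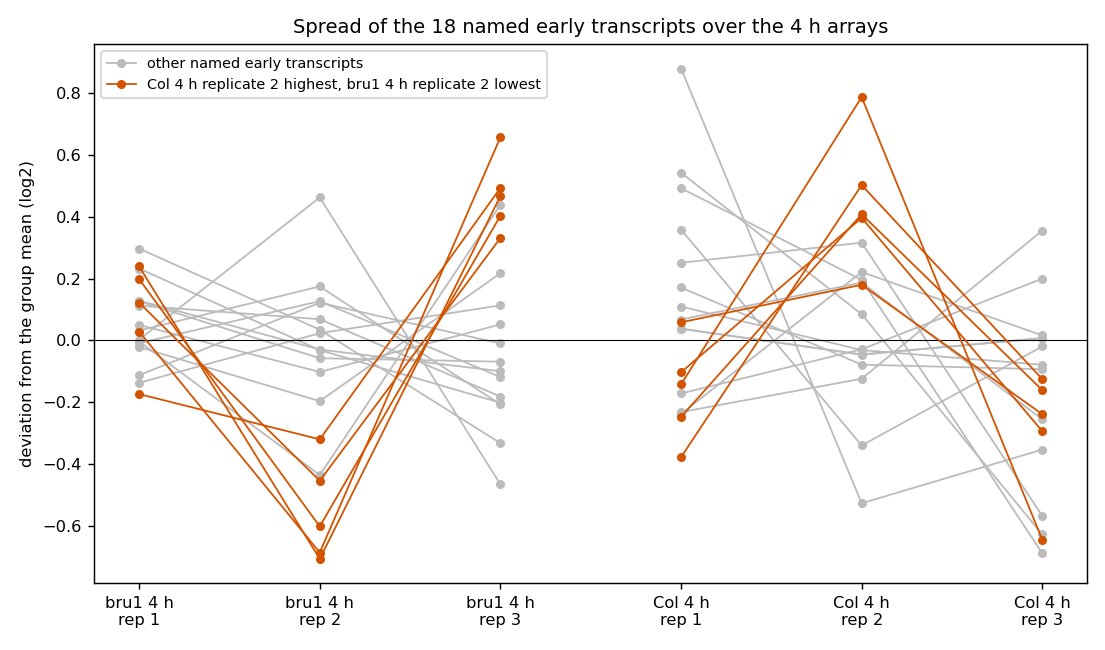
Deviation of each 4 h array from the mean of its group (log2) for the 18 named early transcripts, bru1 left of Col. Lines join the 3 arrays of a gene within a genotype. The 5 genes in orange are those with Col 4 h replicate 2 highest and bru1 4 h replicate 2 lowest.

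The next comparison described the levels of these transcripts in bru1 and in Col at 4 h. Among the 63 probe sets, 13 were higher and 1 was lower in bru1 (limma, Benjamini-Hochberg adjusted p under 0.05 over all probe sets). Thus 20.6% were higher, against 6.45% of all probe sets higher and 6.96% lower. The rule used both 4 h means, and all probe sets were not matched to the members in 4 h level or spread. The distance from all probe sets is therefore a description, and nothing is read from it. The median difference was 0.27, against -0.02 over all probe sets, and 44 of the 63 differences were positive. Of the 166 other probe sets that met the 4 h threshold in both genotypes, 36 were higher (21.7%) and 1 was lower, with a median of 0.34. The 14 calls became 7 when bru1 4 h replicate 1 was dropped, 9 when bru1 4 h replicate 3, Col 4 h replicate 1 or Col 4 h replicate 3 was dropped, and 27 with array weights.

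Of the 18 named genes, 3 were higher in bru1 at 4 h and 0 were lower. At an unadjusted p under 0.05 in limma 8 of the 18 were higher and 0 lower. Under the same limit lay 5986 of all 22746 probe sets, both directions together. AT1G32860 averaged 9.12 ± 0.53 in bru1 and 7.92 ± 0.45 in Col (SD, n = 3 each), a difference of 1.19 ± 0.24 (SE, limma adjusted p = 0.0029) that passed the threshold without any single array. AT1G14200 averaged 10.31 ± 0.67 in bru1 and 9.10 ± 0.73 in Col, a difference of 1.21 ± 0.32 (limma adjusted p = 0.019) on arrays that overlapped. AT3G12510 averaged 8.10 ± 0.62 in bru1 and 7.09 ± 0.36 in Col, a difference of 1.01 ± 0.26 (limma adjusted p = 0.014), also on overlapping arrays. The difference of AT1G14200 had an adjusted p of 0.058 to 0.11 without bru1 4 h replicate 1 or 3 or Col 4 h replicate 1 or 3 and of 0.074 with only the arrays compared, and that of AT3G12510 one of 0.061 to 0.085 without the same arrays. IAA29 did not pass, at 8.74 ± 0.22 in bru1 and 8.02 ± 0.61 in Col (difference 0.72 ± 0.24, limma adjusted p = 0.053), although every bru1 array was above every Col array, and over its alternatives the adjusted p ran from 0.0050 to 0.29.

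In the untreated controls 5 of the 63 were higher in bru1 (7.94%) and 0 were lower. Over all probe sets 5.24% were higher and 5.1% lower. At an unadjusted p under 0.05 in limma 8 of the 63 were higher and 1 was lower. Under the same limit lay 5491 of all 22746 probe sets, both directions together. COR27 averaged 8.39 ± 0.04 in bru1 controls and 7.36 ± 0.12 in Col controls, a difference of 1.03 ± 0.16 (limma adjusted p = 0.00044) that passed under each alternative run. AT5G43440 averaged 7.29 ± 0.24 in bru1 controls and 6.49 ± 0.04 in Col controls (difference 0.81 ± 0.23, limma adjusted p = 0.030). Its adjusted p was 0.073 to 0.13 without any one of the Col control arrays, bru1 control replicate 1 or bru1 control replicate 3, and the 5 calls became 2 when any one of the same arrays was dropped. With only the arrays compared the controls gave 11 calls and the 4 h groups 10, so no order of these counts can be given. The share higher in bru1 was close to that of all probe sets.

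At 52 h, 2 of the 63 probe sets were higher in bru1 (3.17%) and 0 were lower. Over all probe sets 5.84% were higher and 5.66% lower. At an unadjusted p under 0.05 in limma 8 of the 63 were higher and 1 was lower. Under the same limit lay 5690 of all 22746 probe sets, both directions together. The named one of the 2 called was again COR27, at 8.25 ± 0.42 in bru1 and 7.64 ± 0.27 in Col (difference 0.61 ± 0.16, limma adjusted p = 0.020). Its 52 h arrays overlapped, since bru1 replicate 2 stood at 7.77 and Col replicate 2 at 7.93. The adjusted p was 0.066 to 0.12 without Col 52 h replicate 1 or 3 or bru1 52 h replicate 1 or 3, and 0.18 with only the arrays compared. The count of 2 was 0 without Col 52 h replicate 1 or bru1 52 h replicate 1 or 3, 1 without Col 52 h replicate 3 and 4 without Col 52 h replicate 2.

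**Figure D5:**
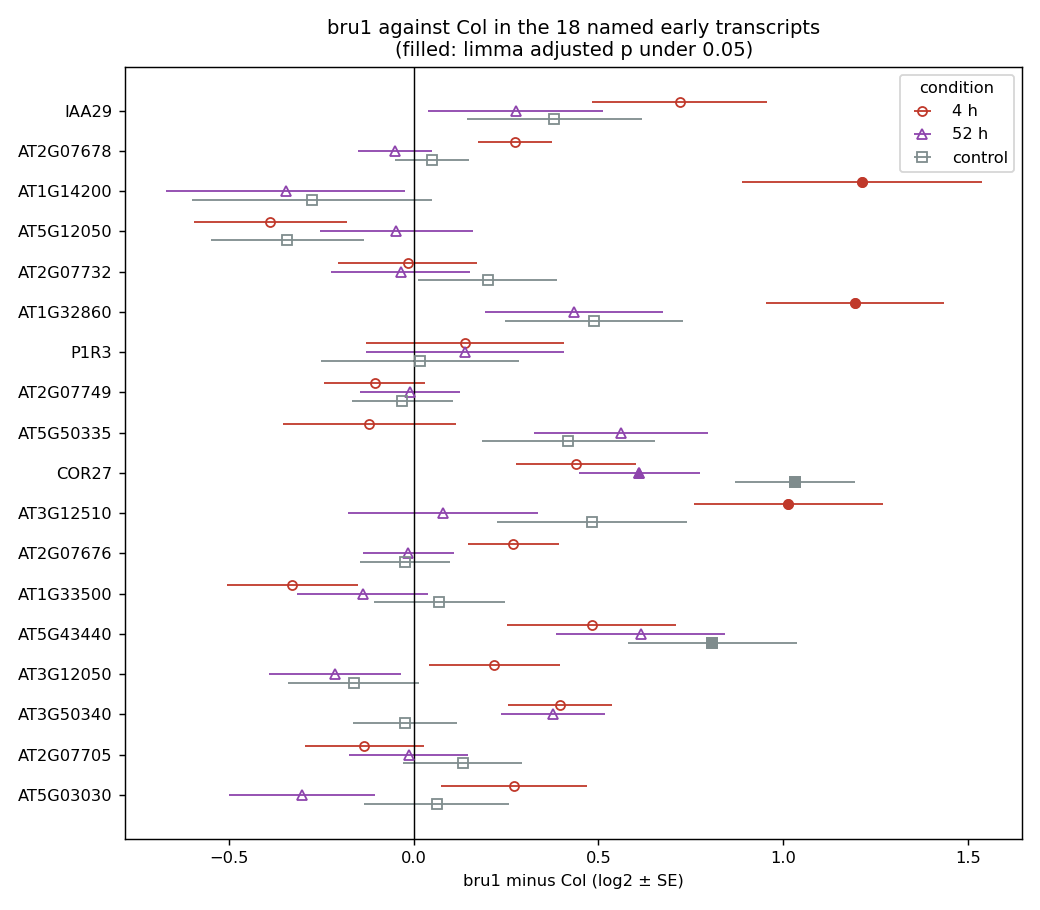
Difference between bru1 and Col (log2 ± SE from limma) for the 18 named early transcripts at 4 h, at 52 h and in the controls. Filled symbols passed an adjusted p of 0.05. AT1G32860, AT1G14200 and AT3G12510 are filled at 4 h, with 1.19, 1.21 and 1.01. COR27 (1.03) and AT5G43440 (0.81) are filled in the controls, and COR27 is filled at 52 h (0.61).

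The interaction, the 4 h change in bru1 minus that in Col, is the difference of both changes by which the transcripts were chosen, so it is given as a description and nothing is read from its counts. In limma 0 of the 63 probe sets passed the adjusted threshold, against 0.343% of all probe sets. Under an unadjusted p of 0.05 in limma lay 18 of the 63, and 2966 of all 22746 probe sets. For AT1G14200 the interaction was 1.49 ± 0.46 (SE), for AT1G32860 0.71 ± 0.34, for AT3G12510 0.53 ± 0.36 and for COR27, whose 4 h change was smaller in bru1, -0.59 ± 0.23. For AT1G14200 it was 1.88 without Col 4 h replicate 2 and 1.83 without bru1 4 h replicate 2, and the count of 0 became 7 without the first of these arrays, 6 without the second and 8 with array weights.

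Relatives of the named regulators did not all share the pattern. Of 11 measured genes of the auxin response (genes named IAA, GH3, SAUR or ARF), 3 were higher and 1 was lower at 4 h in bru1, and 2 were higher and 1 lower in Col, in limma at an adjusted p under 0.05. IAA29 is counted among the higher ones in each genotype by the way it was chosen. Over all probe sets, 19.9% were higher and 19.5% lower at 4 h in bru1, and 18.2% were higher and 18.2% lower in Col. The list had a median 4 h change of 0.15 in bru1 and 0.04 in Col. GH3.3, which encodes an enzyme that conjugates auxin to amino acids, rose by 2.33 in bru1 (limma adjusted p = 4.2e-08) and by 0.92 in Col (limma adjusted p = 9.5e-04). IAA34 rose by 0.54 in bru1 (limma adjusted p = 0.0014) and changed by 0.28 in Col (limma adjusted p = 0.074), and GH3.9 changed by -0.34 in bru1 (limma adjusted p = 0.075) and fell by 0.91 in Col (limma adjusted p = 8.1e-05).

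COR27 was 1 of 4 measured genes of the abscisic acid and cold list, with the LEA genes COR47, COR15A and COR15B, of which 3 were higher at 4 h in each genotype and 0 were lower. COR27 and COR47 are counted there by the way they were chosen. At 4 h COR47 was 2.25 above control in bru1 and 2.06 in Col, and at 52 h it was 0.13 above control in bru1 and 0.22 in Col, within the limits of the rule. COR15A, a chloroplast protein that protects membranes during freezing, was instead 2.24 above control at 52 h in bru1 (limma adjusted p = 3.6e-04) and 1.87 in Col (limma adjusted p = 9.6e-04), after 0.84 at 4 h in bru1 (limma adjusted p = 0.055) and 0.20 in Col (limma adjusted p = 0.70).

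Among ubiquitin ligases of the U-box and RING type found by their names, AT1G14200 not among them, 9 were measured, of which 2 were higher and 2 lower at 4 h in bru1 and 2 were higher and 3 lower in Col. PUB26 changed by -1.18 in bru1 (limma adjusted p = 1.9e-06) and by -1.38 in Col (limma adjusted p = 3.5e-07), whereas PUB49 rose by 0.67 in bru1 (limma adjusted p = 1.8e-04) and by 0.33 in Col (limma adjusted p = 0.032).

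Close to the thresholds, AT5G03030 was the named member nearest the 4 h limit in Col, with a change of 1.55, and AT2G07705 the nearest in bru1, also with 1.55. Just outside the 4 h limit lay AT1G67360, at 2.66 in bru1 and 1.495 in Col, and AT3G12710, at 1.49 in bru1 and 1.56 in Col. At the 52 h limit in Col, AT3G12510 was just inside with 0.50 and AT3G17110 just outside with 0.54.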

How the data were processed

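The deposited log2 expression values per probe set were taken unchanged. The submitters' processing notes name RMA and no version of it. RMA corrects background, quantile-normalises probes and summarises probe sets, so a change of total RNA would not be seen. The values ran from 2.63 to 14.61. Samples were grouped by their titles, and array number limits the precision. A single fit of group means covered all 18 arrays, with lmFit and eBayes of limma (version 3.58.1, R 4.3.3) and 12 residual degrees of freedom. P-values were adjusted by Benjamini-Hochberg over 22746 probe sets and called under 0.05; the 64 AFFX controls were not among them. The linear model was tested on simulated data with known changes.

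Genes came from the probe table and, for names and gene order only, RefSeq on TAIR10.1; 13513 probe sets had 1 gene, of which 13436 matched a locus, 503 had several and 8730 were not listed. Named are all members with 1 gene, up to 4 other genes of a described family by 4 h change, and the genes nearest each threshold. The members, gene lists and rules were chosen with earlier results of these data known. Families are described that hold a member, together with U-box and RING ligases and the tissue markers; lists were matched on symbols and synonyms only. Exclusion was by symbol, synonym and organelle genome, and COR47 was judged a LEA gene. Alternatives were a replicate block, fewer arrays, each array left out, a variance trend with robust prior, a filter on low values, renewed quantile normalisation, median centring, array weights and other thresholds.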

Additional observations from a re-analysis of the deposited data

How the results depend on the processing

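The number of early transcripts depended on the thresholds. It was 63 with the rule, 206 with a minimum 4 h change of 1, 26 with 2, 27 with 52 h within 0.25 of control and 110 with 52 h within 1, and 53 to 70 when a single array was left out. Leaving out each array in turn gave 7 to 19 transcripts that differed between bru1 and Col at 4 h (14 with all arrays), 0 to 4 at 52 h (2), 2 to 7 in the controls (5) and 0 to 7 for the interaction at 4 h (0). Array weights gave 27, 14, 8 and 8 in the same order. Fitting only the arrays compared gave 10 at 4 h, 1 at 52 h and 11 in the controls. The replicate numbers did not pair the arrays, since deviations of same-numbered arrays correlated from -0.51 to 0.22 and 10 of 45 pairs exceeded 0.1. Differently numbered arrays of different groups had a mean correlation of 0.02. Some of these pairs were far higher, such as Col 52 h replicate 2 with bru1 52 h replicate 3 (0.55). Links of this kind were not modelled in any fit. With the replicate block the control count was 3, the 52 h count 3, the 4 h count 14 and the interaction count 0. The variance trend, the filter, renewed quantile normalisation and median centring kept each count within 1.5 times. Causes were not tested. Without detection calls, changes from control means at or below 4.39 were taken as lower bounds, a convention that was not tested.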

Other observations

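Outside the 63 probe sets, the named genes whose levels followed the mean of the 18 named members most closely over the 18 arrays were COR47 (Pearson r = 0.99), AT1G29470 (0.98), AT2G07777 (0.98), AT2G07719 (0.98) and AT1G27090 (0.98), a description over arrays that share groups. AT1G29470 was 1.76 above control at 4 h in bru1 and 1.35 in Col, and AT1G27090 was 1.07 above control in bru1 and 0.97 in Col, each with a 52 h mean within 0.12 of control. AT2G07777 was 4.01 above control at 4 h in bru1 and 4.20 in Col, and AT2G07719, a locus of the chromosome 2 stretch, was 3.43 above it in bru1 and 3.05 in Col. Both exceeded the 52 h limit in Col, and AT2G07777 did so in bru1 too. Among the named members, correlation with the mean of the others ran from 0.93 (AT5G43440) to 0.99 (AT2G07678).

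Of the 229 probe sets that met the 4 h threshold in both genotypes, 30 were within 0.5 of control at 52 h in bru1 but not in Col, and 5 were so in Col but not in bru1.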
